A study of Homo sapiens with 3 samples.

Results

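The VEGF, angiopoietin and neuropilin genes examined here were VEGFA, VEGFB, VEGFC, PGF, ANGPT1, ANGPTL4, FLT1, KDR, NRP1 and NRP2, 10 genes chosen by symbol for their place in angiogenic signaling. The deposited table held 9 of them among its 24254 gene symbols, and ANGPT1 was not analysed here. LX-2, an established human hepatic stellate cell line, was given vehicle or rhFGF19, recombinant human FGF19, at 50 ng/mL (the low dose) or 100 ng/mL (the high dose), and mRNA of 1 sample per condition was sequenced. With 1 library per group, no comparison had a replicate check and no p-value was computed. The series design gives 24 h of stimulation, while the description fields of the rhFGF19 samples give 72 h and 73 h with the doses the other way round, so the doses used here are those of the sample titles and agent fields.

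Secreted VEGF family ligands drive the growth of blood and lymphatic vessels through receptor tyrosine kinases that are found mainly on endothelial cells. VEGFA binds FLT1 and KDR, VEGFB and PGF bind FLT1, and VEGFC binds FLT4 and, once processed, KDR. The neuropilins NRP1 and NRP2 are co-receptors for these ligands and for class 3 semaphorins. ANGPT1 activates the receptor TEK, whereas ANGPTL4 is a secreted inhibitor of lipoprotein lipase that is induced by fasting, by PPARs and by hypoxia. Hepatic stellate cells lie against the sinusoidal endothelium as the pericytes of the liver and are a known source of VEGF in injured liver.

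All VEGF family ligands carry a cysteine-rich signature at the core of their cystine knot. The coding stretches of this signature are shown for VEGFB, VEGFC and PGF because the fold changes of these 3 genes, described below, went with the base composition of their transcripts. They were read from GENCODE v29 transcripts (GRCh38), each has 87 bases within exon 3 of 7, and they lie at chr11:64235893-64235979 on the plus strand, chr4:176727808-176727894 on the minus strand and chr14:74949387-74949473 on the minus strand. Capitals mark the 5 cysteine codons, which stand at the same places in all 3 genes.
VEGFB: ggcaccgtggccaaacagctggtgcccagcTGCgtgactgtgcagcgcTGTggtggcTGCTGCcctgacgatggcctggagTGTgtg
VEGFC: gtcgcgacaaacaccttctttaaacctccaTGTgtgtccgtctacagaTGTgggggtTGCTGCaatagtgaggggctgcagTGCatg
PGF: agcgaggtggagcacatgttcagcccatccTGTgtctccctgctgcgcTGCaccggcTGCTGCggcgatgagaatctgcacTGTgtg
The GC content of the stretch was 66.7% in VEGFB, 62.1% in PGF and 52.9% in VEGFC. Over the whole coding sequence it was 66.3% in VEGFB, 63.0% in PGF and 49.5% in VEGFC. The cysteine codons themselves have the same composition in the 3 genes, 3 TGC and 2 TGT each, so the difference lies in the other codons of the stretch. The stretch of VEGFA is not shown. Its log2 fold change at the low dose was 0.93, where genes of its GC content had a median of 0.13.

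Levels are given in FPKM, that is, fragments divided by transcript length in kilobases and by the number of fragments in the library. This unit divides by length and so allows a comparison between genes. The table keeps no read counts, so the depth behind a value is unknown, and a low value is less certain than its 2 decimals show. Its values summed to between 276690 and 302243 per library. Fold changes were taken as log2(FPKM + 0.1), a scale on which changes of low genes come out too small, for the 12422 symbols whose mean over the 3 libraries reached 0.5 FPKM. The median over these symbols was 0.62 above vehicle at both doses for the values as deposited. At the low dose it was 0.77 after rescaling to TPM and 0.10 after quantile normalization. Over the 8604 symbols of at least 1 FPKM in all 3 libraries it was 0.23 at the low dose and 0.22 at the high dose, as deposited. In vehicle 8890 rows had at least 1 FPKM and 5814 were at 0. These numbers were 10925 and 3966 at the low dose and 10894 and 3959 at the high dose. A symbol can thus pass the filter through the rhFGF19 libraries. Across 12383 genes of known transcript composition, the log2 fold change against vehicle had a Spearman correlation of -0.77 with transcript GC content at the low dose and of -0.78 at the high dose. The genes share the same 3 libraries, and both comparisons share the vehicle library. Between the rhFGF19 libraries this correlation was 0.068. A property of the single vehicle library and an effect of rhFGF19 cannot be told apart here. Each VEGF, angiopoietin and neuropilin gene past the filter is therefore given with its GC content, taken as the median over its listed transcripts. Beside it stands the median fold change of the 500 tested genes nearest to it in GC content. For the genes of other lists these values are given for some only.

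VEGFB was the most abundant of these genes in every library, and VEGFC was the next. In the vehicle library the levels ran from VEGFB at 169 FPKM over VEGFC at 9.07, PGF at 5.07, NRP1 at 4.46, NRP2 at 4.38, ANGPTL4 at 4.33 and FLT1 at 2.06 to VEGFA at 0.72 FPKM. KDR was listed at 0. In RNA pooled from all cells of a culture, fewer expressing cells and less RNA per cell cannot be told apart. VEGFB lay above 97.8% of all tested symbols in the vehicle library, whereas VEGFA lay above 20.6%. NRP1, NRP2 and ANGPTL4 lay close together in vehicle, and without replicates the order of neighbours cannot be set against a spread. At the high dose the order was VEGFB, VEGFC, NRP1, NRP2, FLT1, PGF, ANGPTL4 and VEGFA, with PGF and ANGPTL4 now below FLT1. NRP1 was below NRP2 at the low dose and above it at the high dose.

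**Figure D1:**
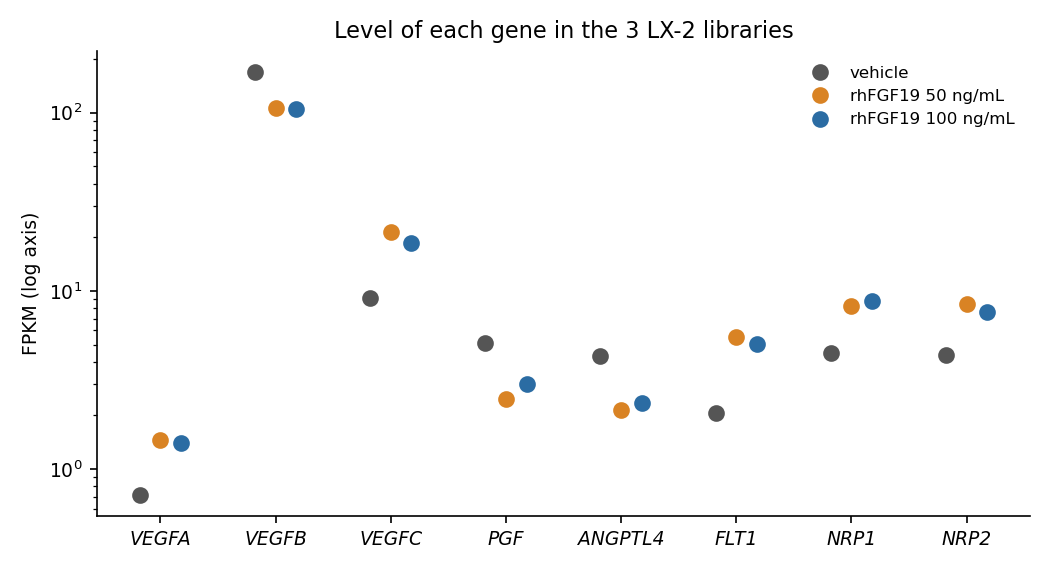
Level in FPKM (log axis) of the 8 genes past the filter on low values in the vehicle, 50 ng/mL and 100 ng/mL libraries, with 1 point per library. VEGFB, PGF and ANGPTL4 have their vehicle point above both rhFGF19 points, and the other 5 genes have it below both.

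Of the 8 genes past the filter, VEGFC and FLT1 exceeded their vehicle level by more than 2-fold at the low dose, and none was more than 2-fold lower. Among all tested symbols 39.5% were more than 2-fold higher and 1.75% lower. At the high dose the genes more than 2-fold higher were again VEGFC and FLT1, against 38.6% of all symbols, and none was lower, against 1.47%. Counted in either direction, 2 of 8 stood beside 41.2% of all symbols at the low dose and 40.1% at the high dose. The median log2 fold change of the 8 genes was 0.90 at the low dose and 0.83 at the high dose, where all symbols had 0.62 and 0.62. Relative to the median of all symbols, the log2 values at the low dose ranged from 0.25 for NRP1 to 0.76 for FLT1 among the 5 genes above vehicle and from -1.30 for VEGFB to -1.62 for PGF among the 3 below it.

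VEGFA, the main mitogen of endothelial cells, is encoded on chromosome 6 from 43770184 to 43786487 (ENSG00000112715; GRCh38, as are all coordinates here). It was listed at 0.72 FPKM in vehicle, 1.46 at the low dose and 1.40 at the high dose. The vehicle value was the lowest, and the rhFGF19 values were nearly level. The log2 fold change was 0.93 at the low dose and 0.87 at the high dose, close to 2-fold on a low level. At the high dose it was -0.0019 after quantile normalization, the 1 alternative in which the direction changed. The 500 genes nearest to VEGFA in GC content, which was 54.5%, had a median of 0.13 at the low dose, and their upper quartile was 0.62. VEGFA had 0.76 and 0.71 after the GC trend was removed, the highest values of the 8 genes. That figure and its rank depend on the transcripts counted, since the 32 VEGFA transcripts of GENCODE v29 span a GC content from 47.6% to 66.1%. It was 1.28 at the low dose with the median over protein-coding transcripts and 0.37 with the longest of them, where VEGFC stood above it with 0.69. Both settings were chosen after seeing the data.

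VEGFB, a ligand of FLT1 linked to fatty acid handling and cell survival, lies on chromosome 11 from 64234538 to 64238793 (ENSG00000173511). Its level was 169 FPKM in vehicle, 106 at the low dose and 105 at the high dose. The rhFGF19 libraries were nearly level with each other, at a log2 difference of -0.0094, and both were below vehicle. The log2 fold changes of -0.68 and -0.69 stand beside a median of -0.49 and -0.47 for genes of its GC content, 61.8%. After the GC trend was removed, -0.27 and -0.29 were left. Its difference from vehicle of -63.5 FPKM at the low dose was the largest of the 8 genes on that scale.

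VEGFC, the principal lymphangiogenic ligand, lies on chromosome 4 from 176683538 to 176792922 (ENSG00000150630). It had 9.07 FPKM in vehicle, 21.4 at the low dose and 18.6 at the high dose. Both rhFGF19 values were above vehicle, and the value at the low dose was the highest. Its log2 fold changes were 1.23 and 1.03, and genes of its GC content, 47.1%, had medians of 1.09 and 1.09. With the GC trend removed it had 0.14 at the low dose and changed direction to -0.036 at the high dose. With GC content taken from the protein-coding transcript alone, 51.4%, the values were 0.60 and 0.42.

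PGF, placental growth factor, which binds FLT1, lies on chromosome 14 from 74941834 to 74955626 (ENSG00000119630). Its level was 5.07 FPKM in vehicle, 2.49 at the low dose and 3.01 at the high dose. Vehicle was the highest and the low dose the lowest. The log2 fold change of -0.997 at the low dose fell just short of 2-fold, and it was -0.73 at the high dose. With a pseudocount of 0.01, PGF and ANGPTL4 were both more than 2-fold lower at the low dose. Genes of the same GC content, 63.3%, had a median of -0.48 at both doses, and after the GC trend was removed PGF had -0.54 and -0.29. PGF was also the gene that differed most between the rhFGF19 libraries, by 0.26 on the log2 scale.

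The proportions of the 4 VEGF family ligands differed between vehicle and the rhFGF19 libraries. VEGFB made up 91.9% of their summed FPKM in vehicle, 80.7% at the low dose and 82.1% at the high dose. The share of VEGFC was 4.92% in vehicle, 16.3% at the low dose and 14.5% at the high dose. That of VEGFA was small throughout, with 0.39% in vehicle, 1.11% at the low dose and 1.09% at the high dose. The ratio of VEGFB to VEGFC, which is free of any scaling between libraries, was 18.7 in vehicle, 4.95 at the low dose and 5.65 at the high dose. By contrast the ratio of VEGFC to VEGFA was 12.6, 14.7 and 13.3. The transcripts of VEGFB have 61.8% GC and those of VEGFC 47.1%, and the log2 change of the VEGFB to VEGFC ratio was -1.91 at the low dose and -1.72 at the high dose. It shrank to -0.41 and -0.26 after the GC trend was removed, and to -0.79 and -0.63 with GC content from the longest protein-coding transcript.

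**Figure D2:**
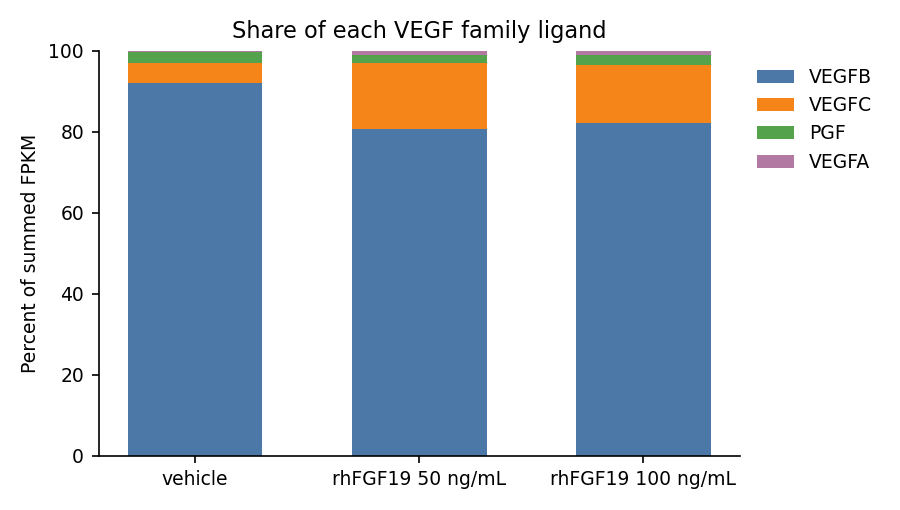
Share of VEGFB, VEGFC, PGF and VEGFA in the summed FPKM of these 4 ligands (percent, stacked bars from 0) in each of the 3 libraries. VEGFB takes 91.9% in vehicle and less in both rhFGF19 libraries, where VEGFC takes 16.3% and 14.5%.

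Among the receptors, FLT1 and KDR differed sharply in level. FLT1, a VEGF receptor that also has soluble forms acting as decoys, lies on chromosome 13 from 28300346 to 28495145 (ENSG00000102755). It had 2.06 FPKM in vehicle, 5.52 at the low dose and 5.06 at the high dose. Both rhFGF19 values were more than 2-fold above vehicle, with log2 fold changes of 1.38 and 1.26, the highest of the 8 genes at each dose. Genes of its GC content, 45.7%, had medians of 1.27 and 1.25. After the GC trend was removed FLT1 had 0.18 and 0.074, and once transcript length was also accounted for the value at the high dose changed direction to -0.085. The table sums all transcripts of a gene, so soluble and membrane-bound FLT1 were not separated. KDR, the main signaling receptor for VEGFA (chromosome 4 from 55078481 to 55125595, ENSG00000128052), was listed at 0 in vehicle, 0.08 at the low dose and 0.01 FPKM at the high dose. It did not pass the filter, and no fold was computed against a value of 0.

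The neuropilins were near each other in level in every library. NRP1 (chromosome 10 from 33177492 to 33336262, ENSG00000099250) had 4.46 FPKM in vehicle, 8.23 at the low dose and 8.75 at the high dose. NRP2 (chromosome 2 from 205681990 to 205798133, ENSG00000118257) had 4.38, 8.49 and 7.66 FPKM. Both were higher in each rhFGF19 library than in vehicle, by 0.87 and 0.96 on the log2 scale for NRP1 and by 0.94 and 0.79 for NRP2. Relative to genes of their own GC content they diverged. NRP1, at 44.8% GC, was below its neighbours, whose medians were 1.31 and 1.29, and had -0.41 and -0.30 after the GC trend was removed. NRP2, at 52.7% GC, was above its neighbours, whose medians were 0.35 and 0.34, and had 0.54 and 0.40. Of 14 alternatives, 10 change the fold changes of these genes. NRP2 kept its direction under these 10, whereas NRP1 changed direction under 5 of them at the low dose. NRP1 overlaps 1 other listed gene, AL121748 on the opposite strand, which had at most 0.05 FPKM.

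ANGPTL4 (chromosome 19 from 8363289 to 8374370, ENSG00000167772) was the only angiopoietin-like gene of the group. It had 4.33 FPKM in vehicle, 2.15 at the low dose and 2.34 at the high dose. Both rhFGF19 values were below vehicle and near each other. The log2 fold changes were -0.98 and -0.86, where genes of its GC content, 64.1%, had medians of -0.55 and -0.54. After the GC trend was removed -0.49 and -0.39 were left. Under the 10 alternatives that change the fold changes ANGPTL4, PGF and VEGFB remained lower than in vehicle, with ANGPTL4 between -1.65 and -0.47 at the low dose.

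With GC content taken as the median over the listed transcripts, the genes below vehicle and those above it did not overlap. Over the 8 genes, which share the same 3 libraries, the Spearman correlation of fold change with GC content was -0.74 at the low dose and -0.90 at the high dose. Over the 12383 genes of known transcript composition it was -0.77 and -0.78. Of the 8 genes, the 3 below had 61.8% to 64.1%, and the 5 above had 44.8% to 54.5%, around a median of 51.2% for all tested symbols. The ranges over single GENCODE v29 transcripts did overlap, from 47.6% to 66.1% for VEGFA and from 54.9% to 67.7% for PGF. Removing the GC trend made the fold change smaller for all 8 genes at each dose, when GC content was the median over the listed transcripts. None of the 8 then passed 2-fold in either direction, against 3.75% of all symbols higher, 5.04% lower and 8.79% in either direction at the low dose. The shares of all symbols at the high dose were 3.32%, 4.51% and 7.83%. The median of the 8 became -0.062 at the low dose and -0.16 at the high dose. The GC trend and a response to rhFGF19 cannot be told apart, because there was 1 library without rhFGF19.

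**Figure D3:**
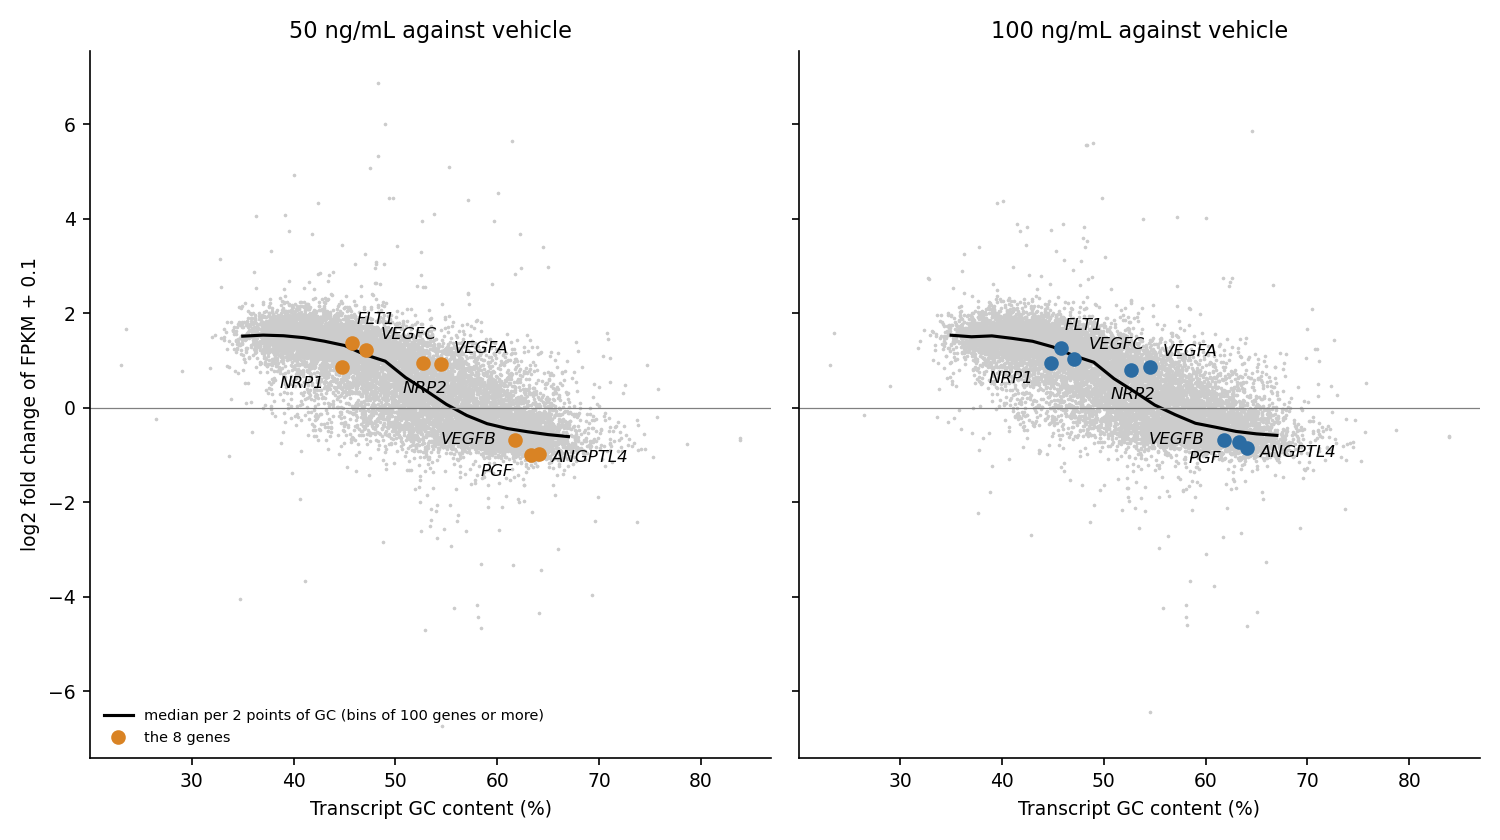
Log2 fold change of FPKM + 0.1 against vehicle (y axis) by transcript GC content in percent (x axis) for all tested genes (grey), with the median in bins of GC content (line) and the 8 genes (coloured points), at 50 and 100 ng/mL. FLT1 and VEGFC lie close to the line, VEGFA and NRP2 lie above it, and NRP1, VEGFB, PGF and ANGPTL4 lie below it.

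**Figure D4:**
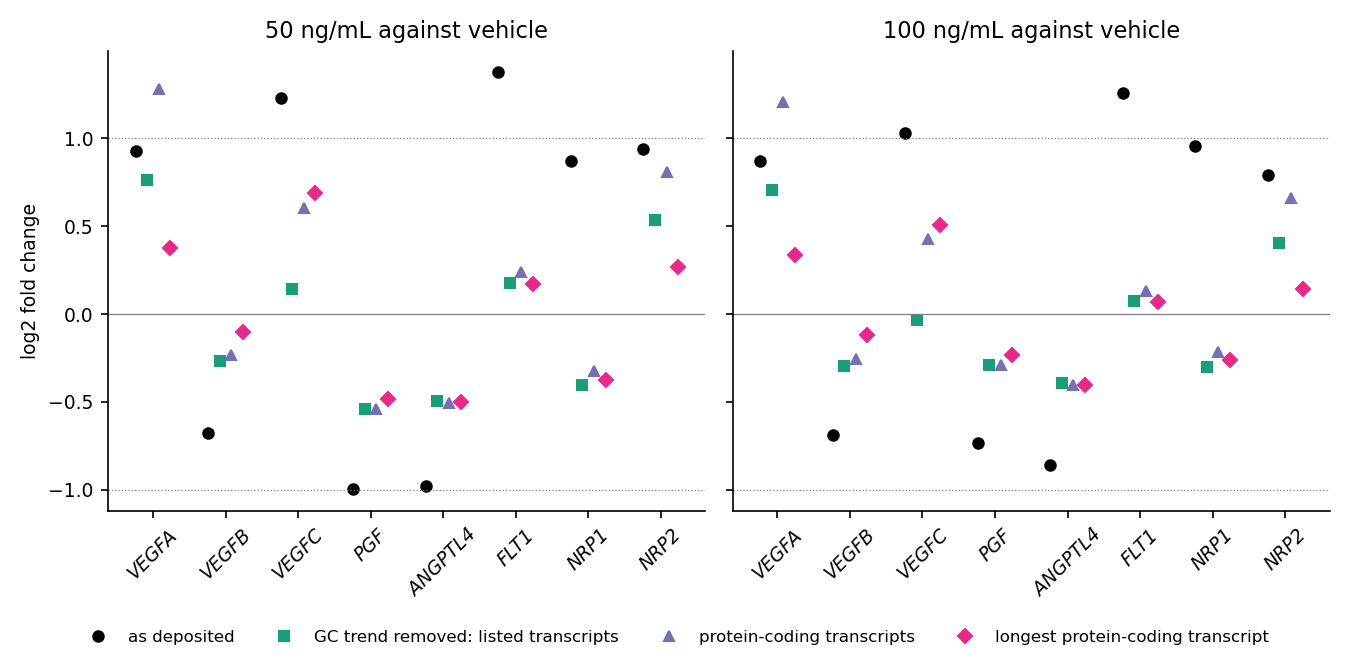
Log2 fold change against vehicle of each gene as deposited (black circles) and after removal of the trend on GC content, measured as the median of the listed transcripts (squares), as the median of the protein-coding transcripts (triangles) or in the longest protein-coding transcript (diamonds), at 50 and 100 ng/mL. Dotted lines mark 2-fold. VEGFA, FLT1 and NRP2 are positive and PGF, ANGPTL4 and VEGFB are negative in every version shown. NRP1 changes sign at both doses, and VEGFC does so at 100 ng/mL.

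The rhFGF19 libraries were close to each other for these genes. None of the 8 was more than 2-fold apart between the high and the low dose, against 1.64% of all symbols in either direction, 0.845% higher and 0.797% lower. With the GC trend removed the count was again 0 of 8, against 0.808% higher, 0.824% lower and 1.63% in either direction. The absolute log2 differences ran from 0.0094 for VEGFB to 0.26 for PGF, with a median of 0.12, and all symbols had a median of 0.089. VEGFC, NRP2, FLT1, VEGFA and VEGFB were lower at the high than at the low dose, and PGF, ANGPTL4 and NRP1 were higher. With 1 library per dose, none of these differences could be set against a spread between replicates.

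The windows before the RefSeq start sites (GRCh38.p14) are shown for VEGFC and FLT1, the genes more than 2-fold higher, and for PGF and ANGPTL4, the genes with the lowest fold changes at the low dose. Windows of 250 bases were read for these and for VEGFB, KDR and NRP2, and the printed stretch is the longest part outside annotated exons. No window was available for VEGFA and NRP1. They lie at chr4:176792923-176793172, chr13:28495146-28495378 and chr14:74955785-74956014 on the minus strand and at chr19:8363905-8364150 on the plus strand. Capitals mark, on either strand, the hypoxia response element core (ACGTG or GCGTG), the GC box (GGGCGG), the STAT site (TTC and GAA with 3 bases between), the AP-1 site (TGACTCA or TGAGTCA) and the TATA box (TATAAA).
VEGFC: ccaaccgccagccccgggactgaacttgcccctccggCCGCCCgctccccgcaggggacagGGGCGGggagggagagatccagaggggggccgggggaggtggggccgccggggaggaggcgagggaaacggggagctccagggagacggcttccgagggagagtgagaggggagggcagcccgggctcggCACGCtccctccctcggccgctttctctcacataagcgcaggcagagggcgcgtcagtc
FLT1: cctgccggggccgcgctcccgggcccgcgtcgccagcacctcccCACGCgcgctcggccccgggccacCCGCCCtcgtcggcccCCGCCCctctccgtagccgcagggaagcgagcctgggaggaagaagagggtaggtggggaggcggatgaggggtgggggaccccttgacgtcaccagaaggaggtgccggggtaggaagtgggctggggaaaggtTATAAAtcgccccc
PGF: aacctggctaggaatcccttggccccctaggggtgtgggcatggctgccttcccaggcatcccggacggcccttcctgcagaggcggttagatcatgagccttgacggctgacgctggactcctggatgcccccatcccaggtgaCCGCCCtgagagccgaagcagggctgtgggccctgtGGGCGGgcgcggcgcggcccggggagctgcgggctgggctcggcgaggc
ANGPTL4: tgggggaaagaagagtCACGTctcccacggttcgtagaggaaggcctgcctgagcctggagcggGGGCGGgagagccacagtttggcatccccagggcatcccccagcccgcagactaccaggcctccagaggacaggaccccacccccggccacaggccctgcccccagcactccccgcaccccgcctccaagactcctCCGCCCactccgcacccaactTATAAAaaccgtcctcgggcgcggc
The windows were GC-rich in the genes above vehicle as well as in those below it. Their GC content was 74.0% for VEGFC, 73.2% for FLT1, 70.8% for PGF and 68.8% for ANGPTL4, against a median of 58.0% over 35093 windows. A hypoxia response element core was found in those of VEGFC, FLT1 and ANGPTL4, and 43.2% of all windows hold 1. The GC box was in all 4, and 42.6% of windows hold it. FLT1 and ANGPTL4 had a TATA box, found in 10.7% of windows. No STAT or AP-1 site was found in these 4 windows, and these occur in 6.57% and 4.20% of all windows. The PPAR response element, AGGTCA repeated after 1 base, was in none of the 4 and occurs in 6 of all windows. PGF has a further window, with 80.0% GC, 1 hypoxia response element core and 3 GC boxes, and 1 of the 3 GC boxes of FLT1 lies outside the stretch shown. Among the genes whose windows are not shown, VEGFB had 82.8% GC, 1 hypoxia response element core and 6 GC boxes. The windows of KDR and NRP2 had 65.2% and 70.0% GC, no such core, and 2 and 3 GC boxes. Such matches describe letters in a window and do not show that a factor binds.

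Of the other genes of the VEGF and angiopoietin families, 8 of 13 were in the table and 3 passed the filter. None was more than 2-fold higher or lower at either dose, where 39.5% and 38.6% of all symbols were higher. Their median log2 fold change of -0.34 at the low dose and -0.23 at the high dose turned to 0.023 and 0.082 after the GC trend was removed. FLT4, the main receptor for VEGFC, had 4.56 FPKM in vehicle, 3.49 at the low dose and 3.86 at the high dose. TIE1, an orphan receptor related to TEK, had 39.6, 31.2 and 32.9 FPKM, with log2 fold changes of -0.34 and -0.27 at a GC content of 60.8%. ANGPTL2 had 5.06, 4.61 and 4.42 FPKM. TEK was listed at 0.24, 0.56 and 0.58 FPKM, below the filter, and ANGPT2, ANGPT4, ANGPTL6 and ANGPTL8 reached at most 0.08 FPKM.

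Neuropilins also bind class 3 semaphorins, which signal through plexins. Of 12 such genes 7 passed the filter, and SEMA3C was more than 2-fold higher at both doses. It had 2.04 FPKM in vehicle, 7.06 at the low dose and 6.33 at the high dose, with log2 fold changes of 1.74 and 1.59, beside a median of 1.23 for genes of its GC content at the low dose. SEMA3F, a ligand of NRP2, had 4.32, 2.54 and 2.51 FPKM, and SEMA3B had 19.3, 13.7 and 13.8. SEMA3D had at most 0.50 FPKM. The log2 fold change of the plexins at the low dose was -0.01 for PLXNA1, 0.57 for PLXNA2, -0.17 for PLXNA3 and -0.03 for PLXND1. The median of the 7 genes was -0.026 at the low dose and -0.047 at the high dose, below that of all symbols, at a median GC content of 60.5%. It became 0.23 and 0.19 with the GC trend removed, above that of all symbols. Then 6 of the 7 were above 0 at both doses, as were 5561 of 12383 symbols among all tested.

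Hypoxia-inducible factors are the best known inducers of VEGFA, and 9 of the 10 HIF subunits and regulators in the table passed the filter. HIF1A, ARNT, ARNT2, EGLN1, VHL and CITED2 were more than 2-fold higher at both doses, a share of 66.7% beside 39.5% of all symbols at the low dose. HIF1A, the oxygen-regulated subunit, had 6.79 FPKM in vehicle, 20.8 at the low dose and 18.8 at the high dose, and its log2 fold changes of 1.60 and 1.45 were near the median of 1.51 for genes of its GC content. ARNT, the partner of HIF1A, had 0.81, 2.31 and 2.07 FPKM. EGLN1 and VHL, which mark and deliver HIF subunits for degradation, had log2 fold changes at the low dose of 1.52 and 1.04. CITED2 and ARNT2 had 1.36 and 1.21. EPAS1, the HIF subunit prominent in endothelium, had 6.77, 13.2 and 13.2 FPKM. Its log2 fold changes of 0.96 and 0.95 stood beside a median of -0.23 for genes of its GC content, 57.9%, and were 1.14 and 1.12 after the GC trend was removed. HIF1AN, which hydroxylates HIF subunits, had 11.5, 11.2 and 11.8 FPKM and a value of -1.18 at the low dose after the trend was removed. EGLN2 had 26.5, 16.6 and 16.3 FPKM. After the GC trend was removed the median of the 9 genes was 0.20 at the low dose and -0.019 at the high dose.

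By the count past 2-fold, genes commonly induced through HIF were near the background. At each dose 7 of 17 were more than 2-fold higher, 41.2%, and none lower. With the trend removed, 1 was higher and 1 lower at the low dose, and 0 and 1 at the high dose. The median of the 17 was then 0.37 at the low dose and 0.40 at the high dose, beside 0.0067 and 0.0057 for all symbols. At both doses 12 of the 17 were above 0, as were 5561 of 12383 symbols among all tested. LDHA, lactate dehydrogenase A, had 16.7 FPKM in vehicle, 61.3 at the low dose and 57.9 at the high dose. The glycolytic enzymes PGK1 and ENO1 had log2 fold changes of -0.40 and -0.25 at the low dose, and PGK1, whose reads can be shared with processed copies, had -1.77 after the GC trend was removed. Of 6 PPAR targets past the filter, 3 were more than 2-fold higher at each dose, 50.0% beside 39.5% and 38.6% of all symbols, and none lower. None of them passed 2-fold after the GC trend was removed. CPT1A, the carnitine palmitoyltransferase of fatty acid oxidation, had 3.4, 6.77 and 6.35 FPKM, ACADVL had 92.2, 57.9 and 57.8, and SLC25A20 had 11.0, 10.4 and 9.67. ANGPTL4, a target of both HIF and PPARs, was below vehicle in both rhFGF19 libraries, and its values were given above.

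Of 10 secreted inhibitors of angiogenesis, 3 were more than 2-fold higher at each dose, a share of 30.0% beside 39.5% and 38.6% of all symbols, and none was lower. At the low dose 8 of the 10 were above vehicle, as were 8143 of all 12422 symbols tested. With the GC trend removed none passed 2-fold. At the low dose 8 were then above 0, as were 6278 of 12383 symbols among all tested. The median of the 10 was 0.38 at the low dose and 0.33 at the high dose. The most abundant were TIMP2 with 56.8 FPKM in vehicle, 90.7 at the low dose and 87.4 at the high dose, SPARC with 40.3, 72.4 and 73.8, and COL4A2 with 40.9, 49.4 and 46.3. Among 13 angiogenic factors of other families, 6 were more than 2-fold higher at each dose, a share of 46.2%. After the GC trend was removed 2 were at the low dose and 1 at the high dose, as were 3.75% and 3.32% of all symbols. The median of the 13 was then 0.31 and 0.32, beside 0.0067 and 0.0057 for all symbols. At both doses 11 of the 13 were above 0, as were 5561 of 12383 symbols among all tested. CXCL8, a neutrophil attractant that also acts on endothelium, had 47.4, 143 and 146 FPKM. Its log2 fold changes of 1.60 and 1.62 were near the medians of 1.52 and 1.51 for genes of its GC content, 37.6%. After the GC trend was removed CXCL8 had 0.084 and 0.12. CCN1 had 112, 197 and 188 FPKM, and CCN2 had 58.9, 120 and 124. With the trend removed CCN1 had 0.93 and 0.85, and CCN2 had 0.45 and 0.51. PDGFA, a platelet-derived growth factor chain, had 1.23, 3.14 and 2.75 FPKM. Its log2 fold changes of 1.28 and 1.10 stood against a median of -0.51 at the low dose for genes of its GC content, 63.4%, and were 1.75 and 1.55 after the trend was removed. Of 19 mediators of VEGF receptor signaling, 6 were more than 2-fold higher at the low dose and 7 at the high dose, shares of 31.6% and 36.8% below those of all symbols. None passed 2-fold in either direction after the GC trend was removed. GIPC1, which binds the neuropilin tail, had 66.0, 37.7 and 36.4 FPKM, PXN had 88.6, 83.8 and 88.2, and HSPB1 had 102, 74.4 and 74.2.

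In the annotation carried by the table, 170 of 226 angiogenesis genes passed the filter. None of these was more than 2-fold lower at the low dose, against 1.75% of all symbols, and 35.9% were higher, against 39.5%. The share was 45.1% of 82 genes for positive regulation of angiogenesis, 50.0% of 48 for negative regulation of angiogenesis, 45.8% of 24 for sprouting angiogenesis and 43.4% of 53 for VEGF receptor signaling, which holds 8 of the genes described here. For VEGF signaling it was 40.0% of 10 genes, and for semaphorin-plexin signaling 11.5% of 26. For the cellular response to hypoxia it was 43.0% of 79 genes, with 2 lower. For the response to hypoxia it was 40.2% of 122, with 1 lower. The genes described here recur in other terms too. VEGF signaling, a term of 14 genes, holds 8 of them, angiogenesis 9 and its positive regulation 8. Sprouting angiogenesis and the response to hypoxia hold 5 each. The shares of these terms thus partly restate the same genes. After the GC trend was removed, the median log2 fold change at the low dose was between 0.075 for the response to hypoxia and 0.17 for sprouting angiogenesis among the 9 terms with at least 10 genes, beside 0.0067 for all symbols. It was 0.16 for semaphorin-plexin signaling, the term with the lowest share above, 0.12 for angiogenesis and 0.092 for VEGF receptor signaling. At the high dose the 9 medians ran from 0.019 for VEGF signaling to 0.18 for sprouting angiogenesis, beside 0.0057 for all symbols. The response to hypoxia had 0.050 and the cellular response to hypoxia 0.032. The VEGF-activated neuropilin term held 2 genes past the filter, both described here and neither past 2-fold, and none of the 3 genes of Tie signaling passed.

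**Figure D5:**
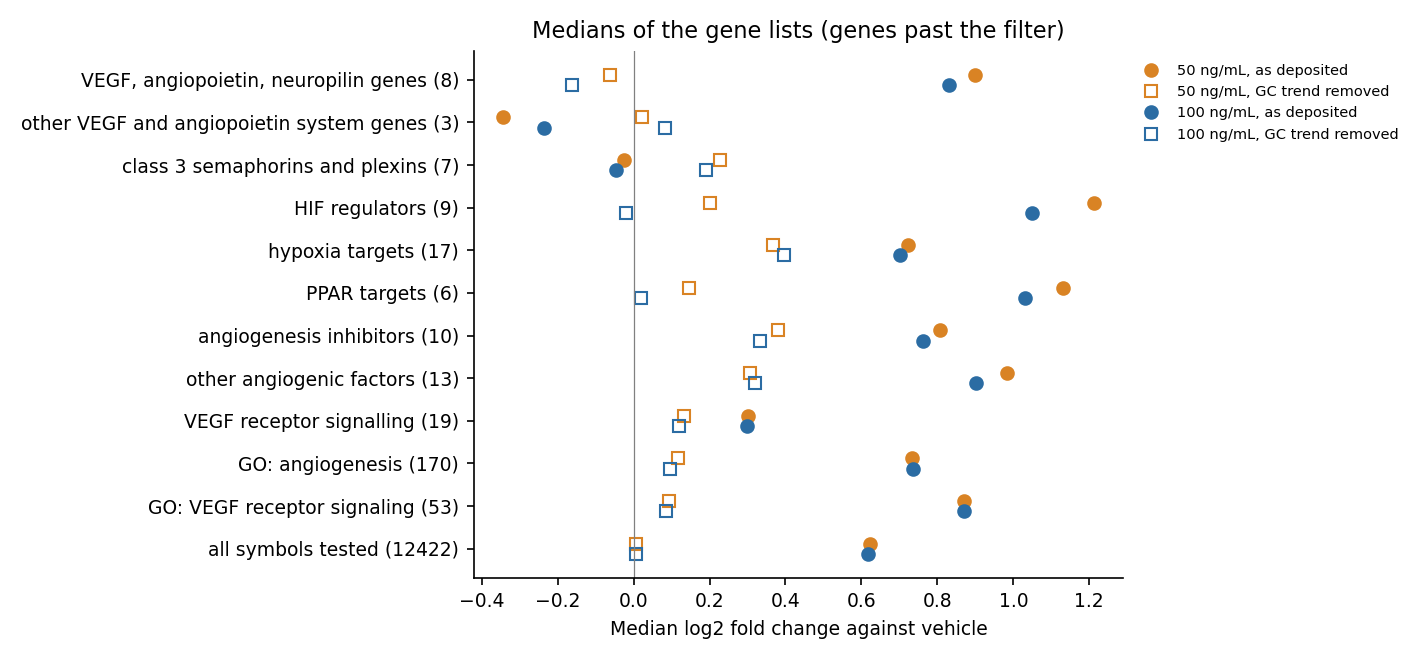
Median log2 fold change against vehicle (x axis) of the genes past the filter in each list (number of genes in brackets), as deposited (filled circles) and after removal of the GC trend (open squares), at 50 ng/mL (orange) and 100 ng/mL (blue). The 8 VEGF, angiopoietin and neuropilin genes move from 0.90 and 0.83 to -0.062 and -0.16, and all symbols move from 0.62 and 0.62 to near 0.

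Of 116 tested genes of these lists, those whose pair of fold changes was nearest to that of VEGFA over the 3 libraries were HBEGF, CPT1A and RAC1. Their distances from VEGFA on the log2 scale were 0.045, 0.046 and 0.079. Their GC content of 50.9%, 52.6% and 50.2% was a little below that of VEGFA.

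The cells were checked against markers of stellate and endothelial cells. Of 17 measured stellate and mesenchymal markers, 11 passed the filter, and VIM, TAGLN and COL1A1 led with 439, 223 and 78.4 FPKM in vehicle. LRAT was listed at 0 in all libraries, and COL1A2, DES, PDGFRA and LUM reached at most 0.14 FPKM. Of 14 measured endothelial markers, FLT1 and KDR included, 5 passed the filter, and the list summed to 127 FPKM in vehicle, 102 at the low dose and 101 at the high dose. ENG, TIE1 and EGFL7 had 55.4, 39.6 and 25.9 FPKM in vehicle. The defining endothelial genes PECAM1 and CDH5 had at most 0.04 and 0.08 FPKM, and ERG was listed at 0 in all libraries.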

How the data were processed

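mRNA of 3 LX-2 libraries, 1 per group, was sequenced by the authors on an Illumina HiSeq instrument and mapped with HISAT2. The authors deposited FPKM values for 26108 Ensembl genes with 2 decimals. The submitters' processing notes name HISAT2 2.0, StringTie 1.3.0 and Bowtie 0.12.2 and the builds hg19 and mm8, without roles. The coordinates nevertheless overlapped GRCh38 positions for 99.9% of the 25531 identifiers found in GENCODE v29. FPKM keeps no read counts, so depth and counting error are unknown and no count test was run.

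Rows sharing a symbol were summed, values were compared as log2(FPKM + 0.1) where the mean was at least 0.5 FPKM, and a log2 fold change above 1 in size, the study's criterion, was counted. Transcript GC content and length were those of GENCODE v29 transcripts, known for 99.7% of tested symbols. Trends of fold change on GC content or length were fitted by lowess (span 0.3) and subtracted. The lists were 13 gene lists (other family members, semaphorins and plexins, HIF regulators, hypoxia and PPAR targets, angiogenesis inhibitors, other angiogenic factors, VEGF receptor mediators, endothelial, stellate, hepatocyte and blood cell markers, housekeeping genes) and 11 GO terms. Every member was named, with family and HIF genes of at least 0.5 FPKM in any library. From other lists the 3 most abundant genes were named, and any past 2-fold in both rhFGF19 libraries after GC correction. The 3 genes nearest to VEGFA were named too, as were genes counted in sets of 6 or fewer and markers at or near 0, chosen after their values were seen. The members and lists were chosen with earlier results of these data known. The procedure was tested on simulated data. Promoter windows came from RefSeq (GRCh38.p14). Python 3.11.15, NumPy 2.4.6, pandas 2.3.3 and statsmodels 0.14.6 were used. The 12 planned and 2 added alternatives are described at the end.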

Additional observations from a re-analysis of the deposited data

Results flagged for a closer look

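Among the genes past the filter that the naming rule gave, 3 lay on opposite sides of vehicle in the rhFGF19 libraries, a difference between the doses that was not tested. PLXNA1 was 0.046 higher at the high than at the low dose on the log2 scale, and HIF1AN was 0.083 higher. ALB, the hepatocyte gene albumin, was at -0.38 in that comparison, with 2.16 FPKM in vehicle, 2.49 at the low dose and 1.89 at the high dose. None of the VEGF, angiopoietin and neuropilin genes did so.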

How the results depend on the processing

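With 1 library per group no replicate could be left out. No paired analysis was possible because each group has 1 library and the groups share fewer than 2 replicate numbers. A value was taken to have moved when it differed from its main value by more than 0.32, the SD over genes of the log2 difference between the rhFGF19 libraries. The cause of each move was not tested, except that trend removal and quantile normalization centre the fold changes by construction and a lower threshold counts more genes.

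The main counts of the 8 genes were 2 higher and 0 lower at each dose. With a pseudocount of 1 the count at the high dose was 0 higher, and with 0.01 there were 3 higher, VEGFA among them at 1.01, and 2 lower at the low dose. With TPM 5 and 4 were higher at the low and high dose. In another alternative the median ratio to vehicle was set to 0 over the symbols of at least 1 FPKM in all 3 libraries. Then 2 were lower at the low dose, and 1 was higher and 1 lower at the high dose. With quantile normalization 1 was higher and 2 lower at the low dose, 0 higher and 2 lower at the high dose, and the medians were 0.17 and 0.11. With the GC trend removed 0 were higher at each dose, with medians of -0.062 and -0.16. With the length trend removed 0 were higher and 3 lower at each dose, with medians of 0.18 and 0.18. With both trends removed 0 were higher, with medians of -0.084 and -0.15. With a 1.5-fold threshold 5 were higher and 3 lower at each dose. With GC content from the median of protein-coding transcripts, chosen after seeing the data, 1 gene, VEGFA, was higher at each dose, with medians of 0.0033 and -0.040. With the longest such transcript, likewise added later, 0 were higher, with medians of 0.034 and -0.026. The counts between the rhFGF19 libraries were also 0 under the alternatives run.

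VEGFC at the high dose changed direction to -0.036 with the GC trend removed and to -0.020 with both trends removed, and FLT1 at the high dose to -0.085 with both. Changing the filter, the threshold or the row of a symbol, 4 of the 14 alternatives, leaves the fold changes of these genes as they are. Of 160 values under the other 10 alternatives, 13 changed sign. Over all symbols the number past 2-fold at the low dose was 4903 higher and 217 lower (95.8% higher). It was 3774 and 781 with the median ratio set to 0 (82.9%), where the median of all tested symbols was still 0.40. Quantile normalization gave 1142 and 1223 (48.3%), removal of the GC trend 464 and 624 (42.6%) and removal of the length trend 1734 and 2018 (46.2%). There were 2189 and 76 with a pseudocount of 1 and 6706 and 725 without a filter.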

Other observations

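The median fold change of genes often used as references was below that of all symbols. Of 14 housekeeping genes 3 were more than 2-fold higher at each dose and none lower, and the medians were 0.068 at the low dose and 0.082 at the high dose on the log2 scale. ACTB had 1053 FPKM in vehicle, 1039 at the low dose and 1035 at the high dose, whereas GAPDH had 5907, 3960 and 4048 and RPLP0 had 1176, 746 and 752. PPIA had 287, 249 and 254 FPKM and -1.33 at the low dose after the GC trend was removed. Several of these genes have processed copies that can share their reads.

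Markers of other liver and blood cells were mostly low. Of 10 hepatocyte markers 3 passed the filter, led by SERPINA1 with 8.93, 9.62 and 9.11 FPKM, and CPS1 had 0.35, 1.27 and 1.53. Of 7 measured blood cell markers, 3 passed it, CD68 with 47.5, 44.2 and 39.8 FPKM, CD14 with 4.28, 2.76 and 2.54 and CSF1R with 0.94, 0.49 and 0.57. The blood cell list summed to 53.5 FPKM in vehicle, 47.7 at the low dose and 43.3 at the high dose.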
